A study of Mus musculus with 24 samples.

Results

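The immediate early transcription factors described here are 10 genes of the 22394 measured: the AP-1 subunits Fos, Fosl1, Jun, Junb and Jund, the DNA-binding factors Egr1 and Nr4a1, and Ier2, Ier3 and Ier5. They were taken by name, through the RefSeq accession of every probe that matched one of these symbols, which gave 12 of the 41174 probes on the array. Junb and Ier2 have 2 probes each, and the brighter one stood for the gene. All 10 genes passed the filter on dim probes. By textbook function 7 members are transcription factors, as the name of the set says. Ier3 encodes a regulator of apoptosis and of ERK signalling, and Ier2 and Ier5 encode related nuclear proteins.

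Expression was measured on 24 Agilent 2-colour arrays in the mouse embryonic stem (ES) line R1. The cells had been infected with lentivirus carrying a control hairpin (shNTC), 1 of 2 hairpins against Cdk8 (shCdk8-1, shCdk8-2) or 1 of 2 against Med12 (shMed12-1, shMed12-2). There were 8 groups of 3 biological replicates: day 8 held shNTC and both Cdk8 hairpins, and day 13 held these 3 and both Med12 hairpins. Every group is the same cell line with the same kind of virus, the labels name no stimulation of the cells, and they do not say whether the replicates came from separate infections, so a p-value reflects array-to-array spread that may be technical. Each value is a log2 ratio of the cells' RNA (Cy5) to a universal mouse reference RNA (Cy3), with no dye swap. A difference is that of log2 ratios between groups with the standard error (SE) of a limma fit over all 24 arrays, and a gene was called when its Benjamini-Hochberg adjusted p, taken across every gene tested, was under 0.05. These are bulk samples, in which fewer cells of a type and less RNA per cell cannot be told apart.

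Immediate early genes are transcribed within minutes of a growth factor, serum or stress signal, with no need for new protein synthesis. MAP kinases act on factors already bound at their promoters, such as SRF with its ELK1-type partners and CREB, and the proteins made then switch on a later wave of genes. FOS and JUN proteins pair through leucine zippers to form AP-1, EGR1 is a zinc finger factor, and NR4A1 is a nuclear receptor that acts without a known hormone. CDK8 is the kinase of the Mediator kinase module and MED12 the subunit that activates it. Mediator itself links factors such as ELK1 to RNA polymerase II, and in ES cells ELK1 is known to act on Egr1 through another Mediator subunit.

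On these arrays the members did not move as a block. Ier5, Jun and Ier3 rose most after Med12 knockdown, by 1.43, 0.76 and 0.82 on the log2 scale with shMed12-1 and by 1.30, 0.90 and 0.50 with shMed12-2. Egr1 was below shNTC with all 6 hairpin and day combinations, by 0.24 to 0.69. Nr4a1 was lower with both Cdk8 hairpins on day 8, by 0.49 and 0.51, and was at -0.19 and 0.17 with them on day 13. From day 8 to day 13, 6 of the 10 rose in shNTC cells as well, where 8.56% of all genes rose.

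The targeted transcripts fell where they were targeted. Cdk8 fell by 0.31 to 0.95 with its hairpins and Med12 by 0.88 and 1.00 with its own, each past the threshold. Med12 was also higher with both Cdk8 hairpins on day 8, by 0.25 (adjusted p = 0.0295) and 0.34 (adjusted p = 0.00515). Cdk8 was lowered least with shCdk8-2 on day 8. Defining markers of ES cells were present on every array: the mean log2 ratio of 8 measured markers, which include Pou5f1, Sox2 and Zfp42, lay between 5.39 and 6.18. The mean of 11 fibroblast or feeder markers lay between -5.17 and -4.12. Means of marker lists were taken after the background was fitted again, as described in the next paragraph.

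Background correction went astray on 2 arrays, the first replicate of shCdk8-1 on day 8 and the third of shMed12-1. Their log ratios had slopes of 0.785 and 0.792 on the other replicates of the group, against 0.969 to 1.12 on the other 22 arrays, so low values there are pulled toward 0. When the background was fitted again without the few spots far below 0, the slopes became 0.967 and 1. Values after this second fit are called refitted below. They are given beside members' calls against shNTC that they change and beside the counts of calls, and not for every value. The plot of levels by array shows both.

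**Figure D1:**
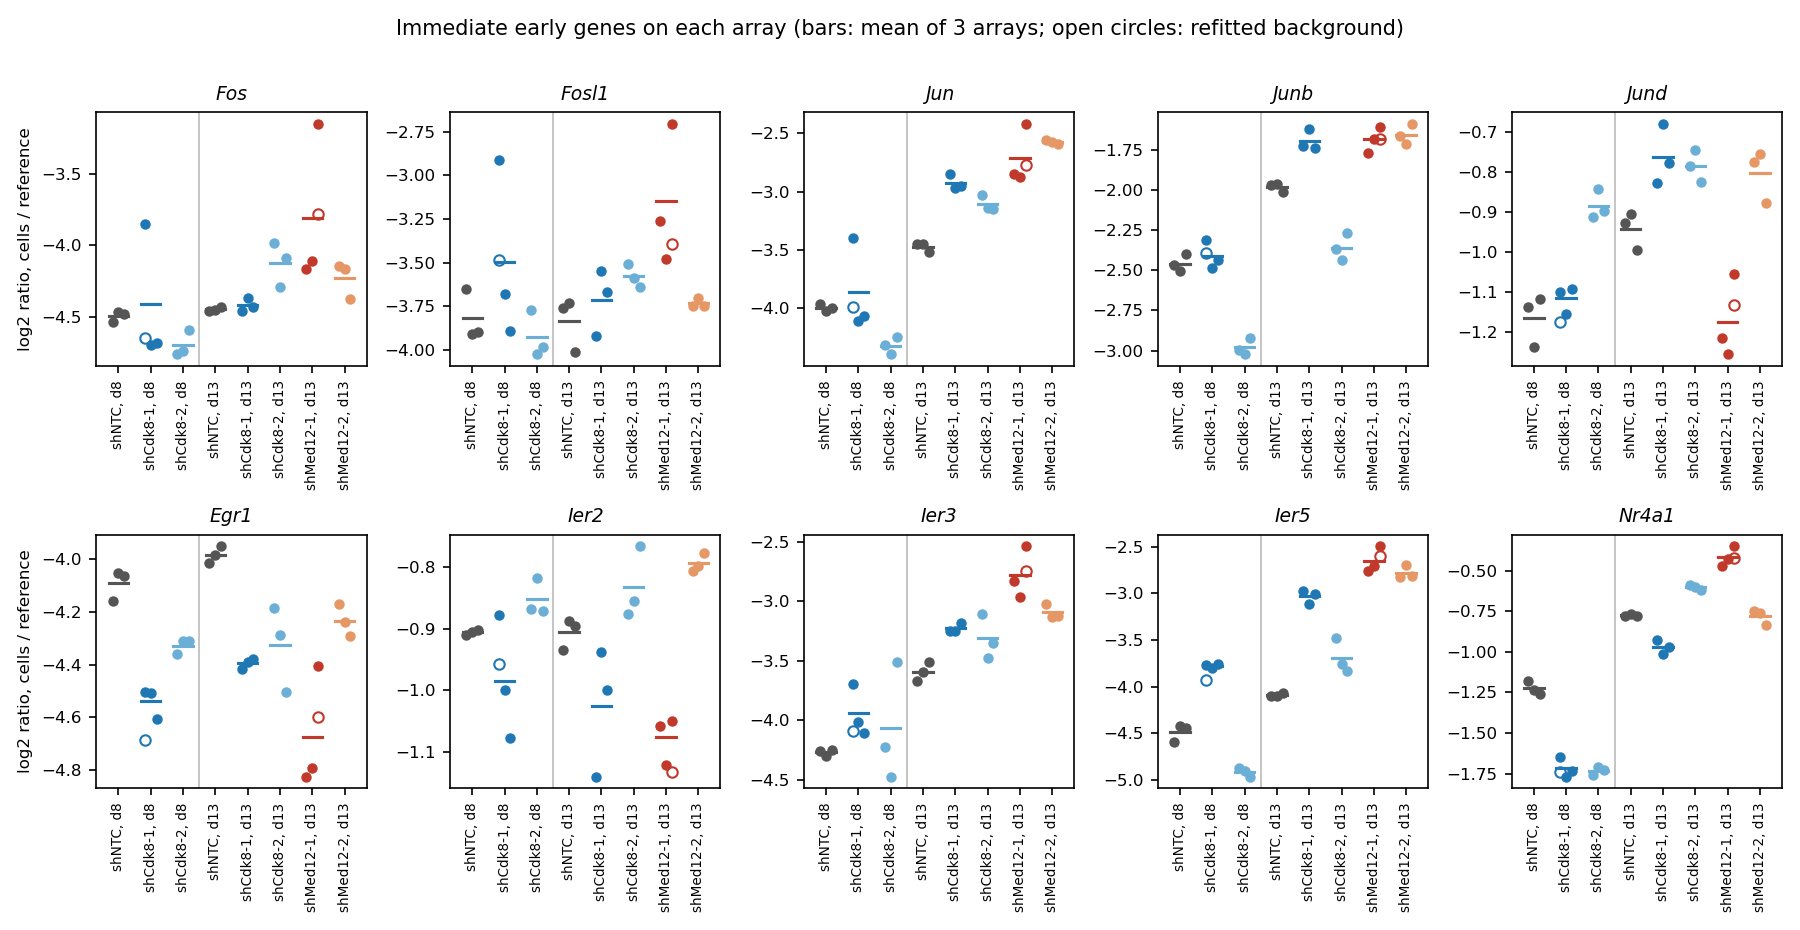
Log2 ratio of the cells' RNA to the reference (y axis) for each of the 10 genes on each of the 24 arrays, by group on the x axis (d8, d13: day 8, day 13). Filled points are arrays, bars the mean of 3 arrays, and open circles the refitted value of the 2 arrays with a misfitted background. Ier5 spans -4.96 to -2.50, Egr1 is highest in both shNTC groups, and the filled Fos and Fosl1 points of the 2 arrays stand above the open ones.

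With shCdk8-1 on day 8, 1 member was higher and 2 were lower, where 16.9% of all genes were called (8.64% higher, 8.22% lower). With shCdk8-2 on day 8, 1 was higher and 3 lower, against 14% of all genes (7.39% and 6.62%). On day 13, shCdk8-1 gave 4 higher and 2 lower members, against 12.6% (6.5% and 6.1%). The hairpin shCdk8-2 gave 2 higher and 2 lower, against 11.6% (5.86% and 5.69%). All 10 members were called with shMed12-1, 7 higher and 3 lower, against 24.9% of all genes (12.9% and 12%). With shMed12-2, 4 were higher and 0 lower at an adjusted p under 0.05, against 17.8% (9.04% and 8.77%). At an unadjusted p under 0.05 they were 5 and 1, for which no share of all genes was taken. After refitting the counts became 1 higher and 5 lower with shCdk8-2 on day 8 (20.5% of all genes called), 5 and 2 with it on day 13 (17.5%), and 4 and 1 with shMed12-2 (24.1%). They stayed at 1 and 2, 4 and 2, and 7 and 3 with shCdk8-1 on day 8 (21.7%), shCdk8-1 on day 13 (18.6%) and shMed12-1 (26.9%).

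Calls shared by both hairpins of a target were fewer. On day 8, Nr4a1 was the 1 member lower with both Cdk8 hairpins, where 2.32% of all genes were, and after refitting Egr1 joined it. On day 13, the Cdk8 hairpins shared Ier5 as higher and Egr1 as lower (2.37% and 1.85% of all genes), and after refitting Jun and Jund were higher too. Jun, Junb, Ier3 and Ier5 were higher with both Med12 hairpins (4.79% of all genes), and after refitting Egr1 was lower (3.82%). The median difference over the 10 members was 0.50 with shMed12-1 (0.38 after refitting) and 0.18 with shMed12-2, where that over all genes was 0.00 with each. The 3 arrays of the hairpin did not overlap the 3 shNTC arrays for all 10 members with shMed12-1 (42.5% of all genes) and for 8 with shMed12-2 (43.3%). With the Cdk8 hairpins this held for 4 (30.9%) and 8 (34%) members on day 8 and for 8 (35.8%) and 10 (34.3%) on day 13.

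**Figure D2:**
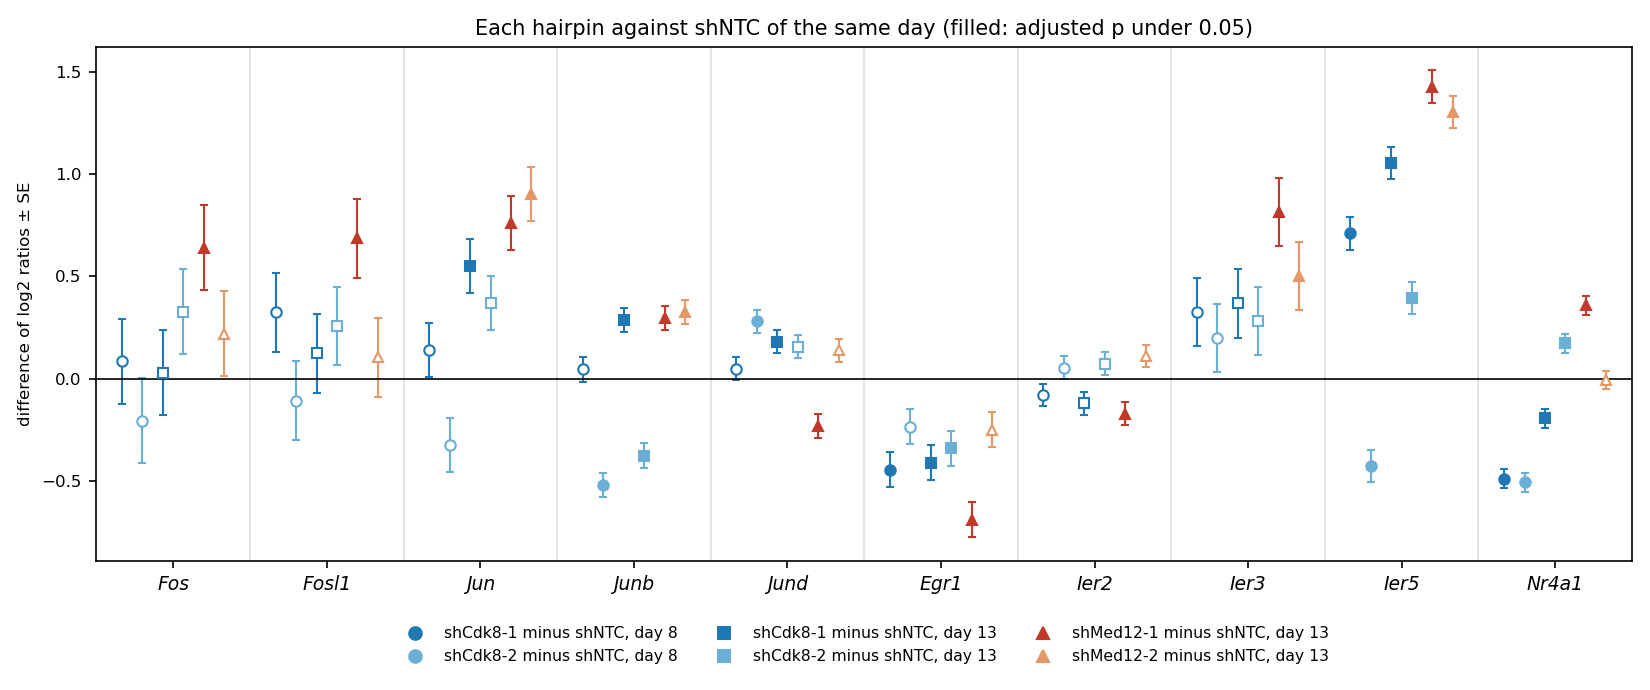
Difference of log2 ratios from shNTC of the same day (y axis, with SE) for each of the 10 genes (x axis) and each of 6 hairpin and day combinations. Filled symbols have an adjusted p under 0.05. The 6 Egr1 points lie between -0.69 and -0.24, and the Ier5 points run from -0.43 with shCdk8-2 on day 8 to 1.43 with shMed12-1.

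Jun encodes the AP-1 subunit c-JUN. On day 8 its log2 ratio was -3.97, -4.02 and -4.00 on the shNTC arrays, -3.40, -4.11 and -4.06 with shCdk8-1 (the first refitted to -3.99) and -4.32, -4.39 and -4.25 with shCdk8-2. On day 13 it was -3.45, -3.45 and -3.52 with shNTC, -2.85, -2.97 and -2.95 with shCdk8-1, and -3.03, -3.14 and -3.15 with shCdk8-2. It was -2.85, -2.88 and -2.42 with shMed12-1 (the last refitted to -2.77) and -2.56, -2.57 and -2.59 with shMed12-2. Thus every knockdown array of day 13 lay above every shNTC array, while on day 8 the shCdk8-2 arrays lay below all shNTC arrays.

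The Jun difference from shNTC on day 13 was 0.55 with shCdk8-1 (SE 0.13, adjusted p = 0.0078 by limma) and 0.37 with shCdk8-2 (adjusted p = 0.08, refitted 3.43e-05). It was 0.76 with shMed12-1 (adjusted p = 0.000253) and 0.90 with shMed12-2 (adjusted p = 4.62e-05). Over both hairpins of each target, Jun was higher with Med12 than with Cdk8 hairpins on day 13, by 0.37 (SE 0.09, adjusted p = 0.00769). The shMed12-1 arrays (refitted mean -2.83) overlapped those of shCdk8-1 (-2.93), however. On day 8 the difference was 0.14 with shCdk8-1, refitted to -0.06, and -0.32 with shCdk8-2 (adjusted p = 0.117, refitted 0.000125). The Jun probe is printed 10 times on each array, and the spread of these spots was 4.09% to 12.2% of their mean.

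Junb encodes JUNB, an AP-1 subunit that can dampen c-JUN activity. Its log2 ratio on day 8 was -2.47, -2.51 and -2.40 with shNTC, -2.31, -2.49 and -2.44 with shCdk8-1, and -2.99, -3.02 and -2.92 with shCdk8-2. On day 13 it was -1.97, -1.96 and -2.01 with shNTC, -1.73, -1.62 and -1.74 with shCdk8-1, and -2.37, -2.44 and -2.27 with shCdk8-2. The 2 Cdk8 hairpins therefore fell on opposite sides of shNTC on day 13, with no overlap of arrays. The differences were 0.29 (SE 0.06, adjusted p = 0.00251) and -0.38 (adjusted p = 0.000275), and the hairpins differed from each other by 0.66 (adjusted p = 2.53e-07).

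On day 8 Junb was 0.05 from shNTC with shCdk8-1 (adjusted p = 0.67) and fell by 0.52 with shCdk8-2 (adjusted p = 6.27e-06). With Med12 hairpins Junb was -1.77, -1.68 and -1.61, and -1.67, -1.72 and -1.59, all above the shNTC arrays of that day. The Junb increases were 0.30 with shMed12-1 (adjusted p = 0.00105) and 0.33 with shMed12-2 (adjusted p = 0.000536). The second Junb probe gave 0.38 with shCdk8-1, -0.37 with shCdk8-2, 0.32 with shMed12-1 and 0.30 with shMed12-2 on day 13, called in the same directions in a fit over all probes.

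Jund encodes JUND, the AP-1 subunit usually made without a stimulus. Its log2 ratios spanned -1.26 to -0.68, and its mean was -1.16 ± 0.06 (SD, n = 3) with shNTC on day 8 and -0.94 ± 0.05 on day 13. It was higher with shCdk8-2 on day 8 by 0.28 (SE 0.06, adjusted p = 0.00214) and with shCdk8-1 on day 13 by 0.18 (adjusted p = 0.0415), a call lost in 5 of the 6 fits that left out 1 array. It was lower with shMed12-1, by 0.23 (adjusted p = 0.00524), and 0.14 above shNTC with shMed12-2 (adjusted p = 0.107). The 2 Med12 hairpins differed by 0.37 (adjusted p = 7.70e-05), and on all 3 shMed12-1 arrays Jund lay below every shNTC array of that day.

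Fos and Fosl1 encode the AP-1 partners c-FOS and FRA-1. Both probes were dim: the Fos signal above local background was 52 to 202 units in the cells' channel, and 23 of 24 arrays had it well above background. Fos log2 ratios were -4.54, -4.46 and -4.48 in shNTC cells on day 8 and -4.46, -4.45 and -4.43 on day 13. With shMed12-1 they were -4.17, -4.11 and -3.15, the last refitted to -3.78, and with shMed12-2 they were -4.15, -4.16 and -4.38. All 6 Med12 arrays thus lay above the shNTC arrays of day 13.

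The Fos increase with shMed12-1 was 0.64 (SE 0.21, adjusted p = 0.029), refitted to 0.43 (SE 0.09, adjusted p = 0.000588). Without refitting, this call was lost in 4 of the 6 fits that left out 1 array. With shMed12-2 the difference was 0.22 (adjusted p = 0.547, refitted 0.0685). On day 13 shCdk8-2 gave 0.33 (adjusted p = 0.377, refitted 0.0101) and shCdk8-1 gave 0.03 (adjusted p = 0.962). On day 8 the differences were 0.09 with shCdk8-1, refitted to -0.18, and -0.21 with shCdk8-2, neither past the threshold in either fit. Fosl1 was 0.69 above shNTC with shMed12-1 (SE 0.19, adjusted p = 0.0127), refitted to 0.46 (adjusted p = 0.0022), and between -0.11 and 0.32 in the other 5 comparisons, none of them called (the highest, with shCdk8-1 on day 8, was refitted to 0.13). The 3 shMed12-1 arrays held Fosl1 at -3.26, -3.48 and -2.71 (refitted -3.39), above the shNTC arrays at -3.76, -3.73 and -4.01.

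Egr1 encodes EGR1, whose transcription is a standard readout of ERK and SRF activity. Its log2 ratio was -4.16, -4.05 and -4.06 with shNTC on day 8, -4.50, -4.51 and -4.60 with shCdk8-1 and -4.36, -4.31 and -4.31 with shCdk8-2. On day 13 it was -4.02, -3.98 and -3.95 with shNTC, -4.42, -4.39 and -4.38 with shCdk8-1, and -4.19, -4.29 and -4.50 with shCdk8-2. It was -4.82, -4.79 and -4.41 with shMed12-1 and -4.17, -4.24 and -4.29 with shMed12-2. No knockdown array reached the lowest shNTC array of its day.

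The Egr1 decrease was called with shCdk8-1 on day 8 (-0.45, SE 0.09, adjusted p = 0.00121) and on day 13 (-0.41, adjusted p = 0.00272). It was called with shCdk8-2 on day 13 (-0.34, adjusted p = 0.0123) and with shMed12-1 (-0.69, adjusted p = 6.13e-06). The values with shCdk8-2 on day 8 (-0.24, adjusted p = 0.0764) and shMed12-2 (-0.25, adjusted p = 0.0507) missed the threshold and passed it after refitting (0.0202 and 0.0112). The 2 Med12 hairpins differed in Egr1 by 0.44 (adjusted p = 0.000873), and Med12 and Cdk8 hairpins on day 13 by -0.09 (adjusted p = 0.332). Egr1 was 0.11 higher in shNTC on day 13 than on day 8 (adjusted p = 0.456).

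Nr4a1 encodes the nuclear receptor NUR77. On day 8 its log2 ratio was -1.18, -1.24 and -1.26 with shNTC, -1.65, -1.77 and -1.73 with shCdk8-1, and -1.76, -1.71 and -1.73 with shCdk8-2. The 6 knockdown arrays lay below the 3 shNTC arrays, and the decreases were -0.49 (SE 0.05, adjusted p = 3.67e-07) and -0.51 (adjusted p = 3.06e-07). The hairpins differed from each other by 0.02 (95% confidence interval -0.08 to 0.11, refitted difference -0.02).

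On day 13 Nr4a1 was -0.78, -0.77 and -0.78 with shNTC, -0.93, -1.01 and -0.97 with shCdk8-1, and -0.58, -0.60 and -0.62 with shCdk8-2. The hairpins again fell on opposite sides of shNTC, at -0.19 (adjusted p = 0.00695) and 0.17 (adjusted p = 0.0171), and differed from each other by 0.37 (adjusted p = 1.67e-05). The call with shCdk8-2 was lost in 4 of the 6 fits that left out 1 array, and with slide as a block neither call remained (-0.13, adjusted p = 0.435, and 0.19, adjusted p = 0.111). With shMed12-1 Nr4a1 was -0.47, -0.43 and -0.35 and rose by 0.36 (adjusted p = 8.91e-06). With shMed12-2 it was -0.75, -0.76 and -0.84 and overlapped shNTC (difference -0.01, adjusted p = 0.953). The 2 Med12 hairpins differed by 0.36 (adjusted p = 7.48e-06).

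Ier5 encodes a nuclear protein of the IER family that is induced by growth factors and by stress. On day 8 its log2 ratio was -4.59, -4.42 and -4.44 with shNTC, -3.77, -3.80 and -3.76 with shCdk8-1, and -4.87, -4.91 and -4.96 with shCdk8-2. The 2 Cdk8 hairpins thus lay on opposite sides of shNTC. The differences were 0.71 (SE 0.08, adjusted p = 3.13e-06) and -0.43 (adjusted p = 0.000931), and the hairpins differed by 1.14 (adjusted p = 6.55e-09), or 2.2-fold.

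On day 13 Ier5 was -4.10, -4.10 and -4.06 with shNTC, -2.97, -3.12 and -3.00 with shCdk8-1, and -3.48, -3.75 and -3.83 with shCdk8-2. It was -2.76, -2.71 and -2.50 with shMed12-1 (the last refitted to -2.60) and -2.83, -2.70 and -2.81 with shMed12-2. Every knockdown array lay above every shNTC array, and the Med12 arrays above every Cdk8 array. The increases were 1.05 with shCdk8-1 (adjusted p = 3.21e-08), 0.39 with shCdk8-2 (adjusted p = 0.00229), 1.43 with shMed12-1 (adjusted p = 9.7e-11) and 1.30 with shMed12-2 (adjusted p = 4.15e-10). In folds these are 2.08, 1.31, 2.69 and 2.47. Med12 hairpins stood above Cdk8 hairpins by 0.64 (SE 0.06, adjusted p = 7.22e-08), and the 2 Med12 hairpins differed by 0.13 (adjusted p = 0.291).

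Ier3 encodes IEX-1, which modulates apoptosis and ERK signalling. Its log2 ratio was -4.26, -4.30 and -4.25 with shNTC on day 8 and -3.67, -3.60 and -3.51 on day 13. With shMed12-1 it was -2.83, -2.96 and -2.54 (the last refitted to -2.75), and with shMed12-2 it was -3.02, -3.13 and -3.12, all above shNTC. The increases were 0.82 (SE 0.17, adjusted p = 0.00116) and 0.50 (adjusted p = 0.0409, refitted 0.0128). The call with shMed12-2 was lost when any 1 of its 6 arrays was left out. With Cdk8 hairpins Ier3 was 0.20 to 0.37 above shNTC, and none of those 4 differences was called. The value with shCdk8-1 on day 8 was 0.33, refitted to 0.20. On day 8 the third shCdk8-2 array was at -3.51 and the other two at -4.22 and -4.47, the widest spread of any Ier3 group (SD 0.50). Without that array the difference from shNTC was -0.08, and in the Cy5 channel alone it was -0.04, so its sign rests on 1 array.

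Ier2 encodes a nuclear protein related to IER5. Its log2 ratios spanned -1.14 to -0.77, and the group means of both days with shNTC were -0.91. It was lower with shMed12-1 by 0.17 (SE 0.05, adjusted p = 0.0275) and was not called in the other 5 comparisons, where the values ran from -0.12 to 0.11. The second Ier2 probe gave 0.24 (SE 0.15) with shMed12-1, of the opposite sign and not called, so the direction there rests on the brighter probe.

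The day of harvest was compared within each hairpin. In shNTC cells, of the 10 members 6 were higher and 0 lower on day 13 than on day 8 at an adjusted p under 0.05. At that threshold 17.6% of all genes were called (8.56% higher, 9.01% lower). The members' counts were the same at an unadjusted p under 0.05, for which no share of all genes was taken. The increases in shNTC were 0.67 for Ier3 (SE 0.17, adjusted p = 0.00708), 0.52 for Jun (adjusted p = 0.00875), 0.48 for Junb (adjusted p = 1.06e-05) and 0.45 for Nr4a1 (adjusted p = 7.86e-07). Ier5 rose by 0.40 (adjusted p = 0.00117) and Jund by 0.22 (adjusted p = 0.0097). Fos, Fosl1, Egr1 and Ier2 were between -0.02 and 0.11.

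The rise from day 8 to day 13 was larger with the Cdk8 hairpins for some of these genes. Jun rose by 0.93 with shCdk8-1 (refitted 1.13) and by 1.21 with shCdk8-2, Ier5 by 0.74 and 1.22, and Nr4a1 by 0.75 and 1.13. With shCdk8-1, 6 members were higher and 0 lower, where 24% of all genes were called (11.3% and 12.8%). With shCdk8-2, 6 were higher and 0 lower, against 27.3% (12.2% and 15%). After refitting, 8 were higher with shCdk8-1 (30.6% of all genes called), with Fos (0.26, adjusted p = 0.0266) and Egr1 (0.20, adjusted p = 0.031) added. With shCdk8-2, 7 were higher (34.1%), with Fosl1 (0.35, adjusted p = 0.0131) added. The test of the difference is the Cdk8 effect on day 13 minus that on day 8, for which 2.37% of all genes were called (1.45% higher, 0.92% lower). It was 0.58 for Ier5 (SE 0.10, adjusted p = 0.00179) and 0.49 for Nr4a1 (SE 0.06, adjusted p = 2.86e-05), and the other 8 members were not called. For Jun it was 0.55 (adjusted p = 0.0855), refitted to 0.65 (adjusted p = 1.02e-06), and for Fos 0.24 (adjusted p = 0.784), refitted to 0.37 (adjusted p = 0.0391). Egr1 differed between days by -0.04 (SE 0.11).

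Hairpins against 1 target differed from each other in part of the set. The Cdk8 hairpins differed in 4 of 10 members on day 8 (17.7% of all genes) and in 4 on day 13 (11.7%), and the Med12 hairpins in 5 (21.5%). After refitting each of these counts was 6, against 23.4%, 17.4% and 26.8% of all genes. Calls in opposite directions against shNTC were those of Ier5 on day 8 and of Junb and Nr4a1 on day 13, all between Cdk8 hairpins. Med12 and Cdk8 hairpins on day 13 differed in 5 members (18.2%), with Ier5, Jun, Junb and Nr4a1 higher and Jund lower with Med12 hairpins. After refitting 6 differed (22.6%), with Ier3 added (adjusted p = 0.0549 before and 0.0373 after). This contrast pools both hairpins of a target, and it did not hold for every pair of hairpins. Nr4a1 was lower with shMed12-2 (mean -0.78) than with shCdk8-2 (-0.60). Junb arrays of both Med12 hairpins overlapped those of shCdk8-1, and Jund arrays of shMed12-2 overlapped those of both Cdk8 hairpins.

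**Figure D3:**
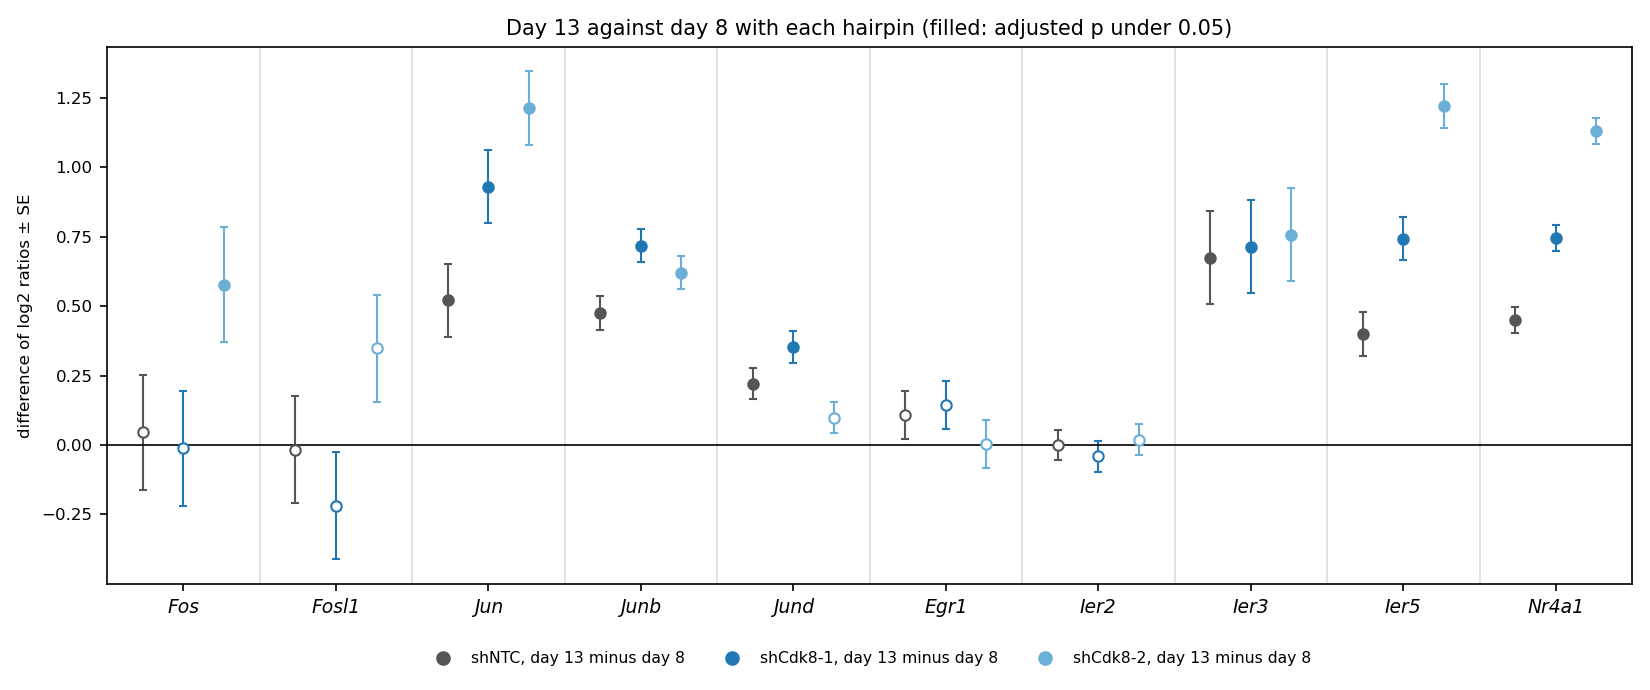
Day 13 minus day 8 in log2 ratio (y axis, with SE) for each of the 10 genes (x axis) with shNTC, shCdk8-1 and shCdk8-2. Filled symbols have an adjusted p under 0.05. Nr4a1 rose by 0.45, 0.75 and 1.13, and the Ier2 points lie between -0.04 and 0.02.

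Slide could be separated from hairpin only in part. The 24 arrays lay on 8 slides, and no slide held shNTC together with shCdk8-1 or shMed12-1 of the same day. In the pairs of arrays that shared a slide, shMed12-2 minus shNTC was 1.27 and 1.36 for Ier5, 0.90 and 0.95 for Jun, 0.57 and 0.38 for Ier3, 0.30 and 0.30 for Junb, and -0.19 and -0.29 for Egr1. The pair with shCdk8-2 gave -0.37 for Ier5, -0.46 for Junb and -0.55 for Nr4a1 on day 8. On day 13 it gave 0.26 for Ier5, -0.30 for Junb, 0.16 for Nr4a1 and -0.49 for Egr1. All these pairs have the sign of the full comparison.

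With slide as a block in the fit, 14 of the 31 calls against shNTC remained, and 26 of 31 when the background was refitted as well. Among the calls lost with slide as a block were Egr1 with shCdk8-1 on day 8 (-0.53, adjusted p = 0.0592) and day 13 (-0.44, adjusted p = 0.0837), and with shCdk8-2 on day 13 (-0.41, adjusted p = 0.0561). Jun with shCdk8-1 on day 13 (0.57, adjusted p = 0.183) and with shMed12-1 (0.77, adjusted p = 0.0735), and Ier3 with shMed12-1 (0.75, adjusted p = 0.0844) and shMed12-2 (0.38, adjusted p = 0.167), were lost too. With the background refitted as well, the 5 lost calls were Junb, Jund and Nr4a1 with shCdk8-1 on day 13 and Fosl1 and Junb with shMed12-1.

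Markers of other cell types moved between the same groups. The list means given here are refitted values, and the counts are not unless marked. Shares of all genes in parentheses are those before refitting. The mean log2 ratio of 7 endoderm markers, such as Gata4, Gata6 and Sox17, was 0.74 to 0.80 on the shNTC arrays of day 8 and -0.15 to -0.03 on those of day 13. On day 8 it was 0.42 to 0.47 with shCdk8-1 and -0.22 to -0.18 with shCdk8-2, and 4 of the 7 were lower with both Cdk8 hairpins (2.32% of all genes). On day 13 it was -0.58 to -0.52 on the Cdk8 arrays, with 3 of the 7 lower with both hairpins (1.85% of all genes), and 4 after refitting. On the Med12 arrays it was -0.77 to -0.53, and 4 of the 7 were lower with both hairpins (3.82% of all genes), and 5 after refitting. Of 11 fibroblast or feeder markers, 3 were higher with both Med12 hairpins (4.79% of all genes) and 2 were lower with both Cdk8 hairpins on day 8 (2.32%). The hairpin shMed12-2 gave 3 higher and 1 lower (9.04% and 8.77%), and 3 and 2 after refitting. The list's mean ran from -5.07 to -4.62 with shNTC on day 13 and from -4.78 to -4.12 with Med12 hairpins. Of 8 ES cell markers, 7 were lower with shMed12-1 (12% of all genes) and 1 with shMed12-2 (8.77%), and 8 and 3 after refitting. With shCdk8-1, 2 were lower on each day (8.22% of all genes on day 8 and 6.1% on day 13). After refitting these were 2 on day 8 and 5 on day 13. With shCdk8-2, 0 were lower on day 8 (6.62%) and 1 on day 13 (5.69%), and 0 and 2 after refitting. Of 4 immune markers 2 were measured and neither was called in any hairpin comparison. The part of these cell types in the members' differences was not tested.

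Promoters of the members that rose with both Med12 hairpins are shown to set their sequences side by side, with that of Nr4a1, which did not. The RefSeq table for build GRCm38.p6 holds a promoter for 7 of the 10 members. Each line gives the 250 bases before the annotated start, 5′ to 3′ on the gene's strand. Capitals mark matches, on either strand, to any of 8 motifs spelled out after the sequences.
Jun, chr4:95052223-95052472, minus strand: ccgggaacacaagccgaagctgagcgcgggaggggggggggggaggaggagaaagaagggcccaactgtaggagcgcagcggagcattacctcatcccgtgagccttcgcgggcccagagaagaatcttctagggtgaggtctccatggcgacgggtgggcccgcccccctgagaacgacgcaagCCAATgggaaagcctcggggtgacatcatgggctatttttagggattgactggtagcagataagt
Junb, chr8:84978749-84978998, minus strand: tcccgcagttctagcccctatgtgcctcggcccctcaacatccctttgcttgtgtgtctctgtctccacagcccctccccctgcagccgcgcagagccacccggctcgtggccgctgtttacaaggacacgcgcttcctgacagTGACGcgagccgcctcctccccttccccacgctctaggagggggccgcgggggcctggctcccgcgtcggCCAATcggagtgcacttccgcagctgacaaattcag
Ier3, chr17:35821463-35821712, plus strand: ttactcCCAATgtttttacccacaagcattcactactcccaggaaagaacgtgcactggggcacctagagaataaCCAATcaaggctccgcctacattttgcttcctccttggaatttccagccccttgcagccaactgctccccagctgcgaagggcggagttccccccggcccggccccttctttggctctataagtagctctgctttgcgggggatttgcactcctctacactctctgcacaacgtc
Ier5, chr1:155099637-155099886, minus strand: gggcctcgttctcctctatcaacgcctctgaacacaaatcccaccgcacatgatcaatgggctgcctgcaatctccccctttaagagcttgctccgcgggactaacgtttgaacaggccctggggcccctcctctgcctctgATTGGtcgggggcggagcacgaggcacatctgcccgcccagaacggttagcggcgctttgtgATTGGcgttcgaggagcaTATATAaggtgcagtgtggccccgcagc
Nr4a1, chr15:101266596-101266845, plus strand: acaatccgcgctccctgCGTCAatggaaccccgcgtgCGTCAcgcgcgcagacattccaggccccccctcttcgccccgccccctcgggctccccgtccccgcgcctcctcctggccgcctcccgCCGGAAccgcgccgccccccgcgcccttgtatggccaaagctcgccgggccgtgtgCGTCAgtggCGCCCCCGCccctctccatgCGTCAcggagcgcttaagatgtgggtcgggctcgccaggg

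A CCAAT box, found in 33.8% of the 32851 promoter windows of this length, was present in all 4 promoters of genes that rose with both Med12 hairpins: 1 in Jun and Junb and 2 in Ier3 and Ier5. Nr4a1 held none and had 4 copies of the cAMP response half-site TGACG, a motif in 17.8% of windows. It also had the EGR site GCGGGGGCG (2.57% of windows) and the ETS core CCGGAA (12%). Junb had 1 cAMP response half-site, and Fos, whose window is not printed, had 2. Fos had the TATA box TATAAA (12.4% of windows), and Ier5 the related letters TATATA (5.25%). The Jund window held none of the 8 motifs. No exact match to the CArG box bound by SRF, CCWWWWWWGG with W for A or T (1.47% of windows), was found in these 7 windows. The AP-1 site TGACTCA (4.46%) had no exact match in them either. Variants of these motifs and bases further upstream were not searched, and the members Egr1, Fosl1 and Ier2 have no window. The promoters may thus hold sites that this search could not see. Both strands were searched, and none of the matches overlapped one of another motif. A match is a description of the letters, not a bound site.

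Other genes of the pathway were taken from lists by function. Of 12 measured AP-1 and CREB-related genes other than the members, 5 rose with both Med12 hairpins and 0 fell at an adjusted p under 0.05. At that threshold 4.79% of all genes rose and 3.82% fell. The list's counts were the same at an unadjusted p under 0.05, for which no share of all genes was taken. The 5 that rose include Fosl2, encoding the AP-1 subunit FRA-2 (1.11 with shMed12-1 and 0.84 with shMed12-2). They also include the stress-induced repressor Atf3 (0.68 and 0.75), and the small MAF genes Maff (0.56 and 0.77) and Mafk (0.60 and 0.41). The median of the list's mean over both hairpins was 0.19 (0.16 after refitting), where that of all genes was 0.00. With both Cdk8 hairpins Maff rose on day 13, by 0.46 and 0.43, where 2.37% of all genes rose. After refitting 2 genes of the list did. On day 8 none was called (2.78% of all genes rose and 2.32% fell), with 1 higher at an unadjusted p under 0.05. On day 8 Jdp2 was at 0.17 and 0.43 and Fosl2 at 0.13 and -0.55.

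Of 6 EGR and NR4A relatives and EGR corepressors, Egr4 fell with both Cdk8 hairpins on day 8, by 0.82 and 0.94 (adjusted p = 0.0247 and 0.0123), where 2.32% of all genes fell. After refitting 2 of the 6 did. In the other comparisons none was called with both hairpins at an adjusted p under 0.05. Of all genes, 2.37% rose and 1.85% fell with both Cdk8 hairpins on day 13, and 4.79% and 3.82% with both Med12 hairpins. In a list of 6 genes the lack of calls says little. At an unadjusted p under 0.05 only 1 was called there, lower with the Med12 hairpins. Egr2 was 0.28 and 0.14 from shNTC with the Cdk8 hairpins on day 13, and with the Med12 hairpins Egr4 was at -0.61 and 0.04 and Nr4a2 at 0.42 and 0.13. Egr2 and Egr3 were not called with both hairpins in any of these comparisons.

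Other immediate early and rapid response families gave 37 measured genes. With both Med12 hairpins 14 rose and 2 fell (15 and 3 after refitting), where 4.79% and 3.82% of all genes did. Ccn1, a matricellular growth regulator, rose by 1.06 and 1.01, Gadd45b, a stress sensor, by 0.91 and 0.96, and Phlda1 by 0.84 and 0.99, while Klf4, a pluripotency factor also counted among the ES cell markers, fell by 0.60 and 1.43. On day 13, 7 rose and 1 fell with the pair of Cdk8 hairpins (9 and 2 after refitting), against 2.37% and 1.85% of all genes. Ccn1 rose by 0.35 and 0.78, the ERK phosphatase gene Dusp6 by 0.37 and 0.69, Klf6 by 0.39 and 0.55 and Cited2 by 0.31 and 0.46.

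On day 8, 2 genes of this list were higher and 6 lower with both Cdk8 hairpins (3 and 7 after refitting). Gadd45g rose by 0.97 and 0.28, and Phlda1 fell by 0.50 and 0.63, Ccn2 by 0.67 and 0.40, and the EGF receptor ligand gene Hbegf by 0.48 and 0.52. The list's median over the mean of both hairpins was -0.07 on day 8 and 0.14 on day 13 with Cdk8 hairpins, and 0.28 with Med12 hairpins. Beside these, 2.78% of all genes rose and 2.32% fell with both Cdk8 hairpins on day 8.

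**Figure D4:**
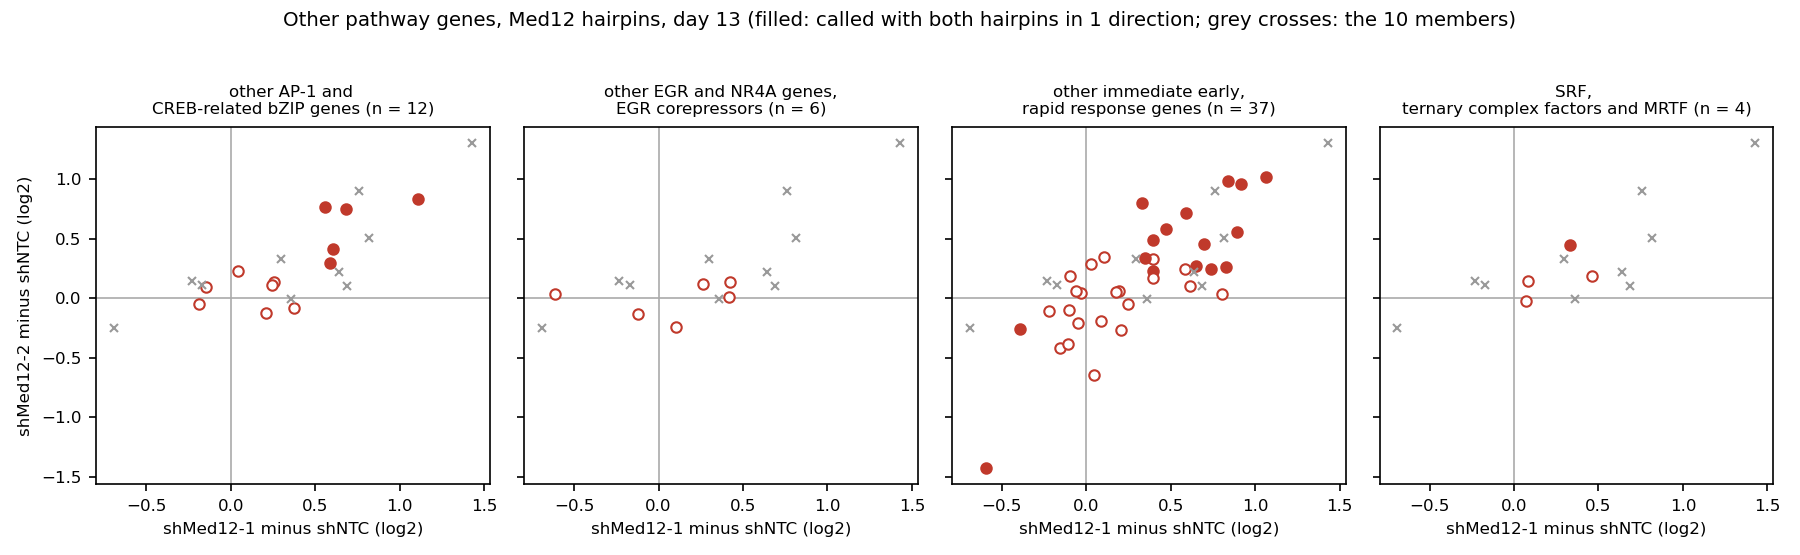
Difference from shNTC on day 13 with shMed12-1 (x axis) and shMed12-2 (y axis), in log2, for the genes of 4 pathway lists. Filled points were called with both hairpins in 1 direction, open points were not, and grey crosses are the 10 members. Filled points number 5 of 12, 0 of 6, 16 of 37 and 1 of 4 from left to right, and the lowest one is Klf4 at -0.60 and -1.43.

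Calls of upstream genes with both hairpins are set beside the shares of all genes at an adjusted p under 0.05 before refitting. With both Cdk8 hairpins 2.78% of all genes rose and 2.32% fell on day 8, and 2.37% and 1.85% on day 13. With both Med12 hairpins 4.79% rose and 3.82% fell. No such share was taken for refitted or unadjusted calls, and in lists this short a count of 0 says little. Of SRF and its partners, 4 were measured, and Srf itself rose with both Med12 hairpins, by 0.33 (adjusted p = 0.000813) and 0.45 (adjusted p = 3.76e-05). With both Cdk8 hairpins none was called, and 0 and 1 were at an unadjusted p under 0.05 on days 8 and 13. Srf was at 0.26 and -0.01 on day 13 and at 0.05 and -0.28 on day 8, and Mrtfb, a coactivator of SRF, at 0.17 and 0.25 on day 13. Of 13 MAP kinase and MSK genes none was called in 1 direction with both hairpins in any comparison at an adjusted p under 0.05 before refitting. After refitting 1 was higher with both Cdk8 hairpins on day 13 (Rps6ka3, 0.21 and 0.24) and 1 with both Med12 hairpins (Map2k4, 0.26 and 0.18), both named after their values were seen. Before refitting, at an unadjusted p under 0.05 there were 1 higher and 1 lower with Cdk8 hairpins on day 8, 1 higher on day 13 and 1 higher with Med12 hairpins. Mapk14, encoding p38 alpha, was -0.54 and -0.10 from shNTC on day 8 and -0.55 and 0.03 on day 13, a decrease called with shCdk8-1 and not with shCdk8-2.

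Of textbook examples of AP-1 or EGR1 targets, 12 transcripts were measured. Calls with both hairpins are given beside the shares of all genes. On day 13, 1 was higher and 0 lower with Cdk8 hairpins (2.37% and 1.85% of all genes). With Med12 hairpins 2 were higher and 0 lower (4.79% and 3.82%). On day 8, 0 were higher and 3 lower with Cdk8 hairpins (2.78% and 2.32%). The urokinase receptor gene Plaur rose on day 13 by 0.51 and 0.58 with the Cdk8 hairpins and by 1.18 and 0.64 with the Med12 hairpins. Timp1, a protease inhibitor gene, rose with the Med12 hairpins as well, by 0.65 and 0.23. On day 8, Pdgfa, encoding a platelet-derived growth factor chain, fell with both Cdk8 hairpins (-0.46 and -0.41), as did Vegfa, encoding an endothelial growth factor (-0.49 and -0.27).

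The members were also set beside all genes with a symbol by Pearson's r of the log2 ratio over the 24 arrays, which share a reference RNA and the 8 groups, as a description. The 3 genes nearest to Jun were Stbd1 (r = 0.985), Camk2d (0.983) and Parva (0.98), and those nearest to Nr4a1 were Arhgap8 (0.973), S100a6 (0.97) and Cavin1 (0.966). Unc5b, Ecpas and Endod1 were nearest to Ier5 (0.968, 0.964 and 0.961), and Zfp768, Srf and F2r to Junb (0.96, 0.957 and 0.955). Vwa5a, Stard10 and Exoc3l4 were nearest to Ier3 (0.942, 0.938 and 0.936). Before refitting Egr1 and Ier2 had no neighbour above 0.825, with Dhodh (0.824), Xpc (0.805) and Trub1 (0.801) for Egr1 and Nfe2l2 (0.825), Lck (0.793) and 1810009A15Rik (0.789) for Ier2. After refitting r was 0.861 between Egr1 and Dhodh and 0.837 between Ier2 and Nfe2l2. Without both arrays most extreme in Egr1, and before refitting, r between Egr1 and Dhodh was 0.698.

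For Jund the nearest were Grb10 (0.9), Mapk12 (0.864) and Abcb11 (0.86). For Fos they were Nab1 (0.912), Nedd9 (0.906) and Jaml (0.903), and for Fosl1 Cstad (0.949), Fmod (0.945) and Btk (0.94). The values for Fos and Fosl1 lean on the 2 arrays with a misfitted background, without which r with Nab1 was 0.815 and r with Cstad 0.833. Within the set, after refitting, r was 0.908 between Jun and Ier5, 0.907 between Jun and Ier3, 0.889 between Jun and Junb and -0.426 between Egr1 and Ier5. After removal of group means the same pairs, in this order, gave 0.251, 0.55, 0.166 and 0.699. For Egr1 and Ier5 the sign thus turned, so the -0.426 describes group means and not arrays within a group.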

How the data were processed

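Each array gave median spot and local background intensities in both channels, deposited as Agilent Feature Extraction output (version 10.7, per the submitters' processing notes), where the scanner's log10 ratio of Cy5 over Cy3 is also given. The authors' value table holds log2 ratios and served as an alternative. The planned mean intensities and gene name column were not used here: median intensities and accessions took their place. Control spots were left out, background was corrected by normexp (offset 50), ratios were loess-normalised within arrays, and spots of a probe were averaged. A probe was kept if some group had it well above background in Cy5 in each of its 3 replicates, leaving 28240 probes and 22394 genes, the brightest probe standing for a gene. A limma fit (limma 3.58.1, R 4.3.3) over 24 arrays with 8 group means left 16 residual degrees of freedom, with Benjamini-Hochberg adjustment over all genes at 0.05. The refitted background left spots under -100 out of the background fit. The fit was tested on simulated data. Between 48.9% and 76.1% of spots were well above background, and the number of arrays limits the precision.

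The members and lists were chosen with earlier results of these data known. Text names all members, Cdk8 and Med12, up to 4 genes per pathway list among those called with both hairpins (largest mean change) or up to 2 where none was, and the 3 most alike genes per member by Pearson's r. A result that the rule would name is not reported here. Srf on other days, Mapk14 and the refitted values were chosen after values were seen. Alternatives were median centring, the scanner's and the authors' ratios, Cy5 alone, no filter, probe means, only the groups compared, slide or replicate number as a block, array weights, a threshold of 0.01 and leaving out arrays.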

Additional observations from a re-analysis of the deposited data

Results flagged for a closer look

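The Cdk8 effect differed between days for 2 members by the test of that difference in the limma fit. For Ier5 the mean over both hairpins went from 0.14 on day 8 to 0.72 on day 13, a difference of 0.58 (SE 0.1, adjusted p = 0.0018). For Nr4a1 it went from -0.5 to -0.01, a difference of 0.49 (SE 0.06, adjusted p = 2.9e-05). On both days the mean joins hairpins that differed from each other in Ier5, and on day 13 in Nr4a1 as well.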

How the results depend on the processing

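Of the 31 calls of members against shNTC, 31 remained with the refitted background, the scanner's ratio, the authors' table or array weights, 30 with probe means, 28 without the filter, 26 with only the groups compared or Cy5 alone, 24 at a threshold of 0.01, 14 with slide as a block and 8 with median centring instead of loess. With median centring the members called were 1, 0, 1, 0, 4 and 2 for shCdk8-1 and shCdk8-2 on day 8, shCdk8-1 and shCdk8-2 on day 13, shMed12-1 and shMed12-2, 3 for shNTC over time and 0 for the Cdk8 effect between days. That last count was 4 with the refitted background, the scanner's ratio, the authors' table, slide as a block after refitting, or without both arrays of low slope. For shCdk8-2 on day 13 the count was 7 with the refitted background and without both arrays, and 2 with Cy5 alone, slide as a block or a threshold of 0.01. Slide as a block gave 1 for shCdk8-1 on day 13 (3 with the refitted background as well) and 3 for shMed12-1. Array weights gave 7 for shMed12-2, and leaving out both arrays gave 7 for shCdk8-2 on day 8. The cause of these shifts was not tested. Ier2 with shMed12-1 turned to 0.035 (adjusted p = 0.831) as a mean over probes. Leaving out 1 array gave 3 to 3, 4 to 4, 5 to 6, 3 to 4, 7 to 10 and 3 to 3 calls for the same 6 hairpin comparisons, 5 to 6 for shNTC over time and 2 to 3 for the Cdk8 effect between days. With the replicate number as a block, the count was 5 for shCdk8-1 on day 13, where Jund was lost (adjusted p = 0.0568), and did not change in the other comparisons. Arrays of 1 number correlated between -0.276 and 0.287 after removal of group means. That is little shared signal by number, but it cannot show whether arrays of 1 number share an infection or culture. Fos and Fosl1, the dimmest members, are limited most by signal over background.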
